A study of Mus musculus with 6 samples.

Results

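Integrin, cadherin and protocadherin genes were compared between Lpar6-/- and Lpar6+/+ mouse embryonic fibroblasts, primary connective tissue cells cultured from mouse embryos. Lpar6 encodes a receptor for the lipid signal lysophosphatidic acid. The members were all array probes whose annotated symbol is that of an integrin alpha or beta chain, a numbered cadherin or a protocadherin. This gave 203 of the 45281 probes, for 112 of 19057 named genes: 24 integrins, 23 cadherins and 65 protocadherins. The rule uses symbols and no measured value, though the families were picked with earlier results of these data known. RNA came from 3 Lpar6-/- samples (arrays D to F) and 3 Lpar6+/+ samples (arrays A to C), all from a mixed 129SV and C57BL/6 background. It was hybridised to Illumina bead arrays, and all sample titles carry the same number. The labels do not say what this number or the letters stand for. If the letters are array positions, position and genotype cannot be told apart. The series title speaks of a knock-down, whereas the genotype labels name Lpar6-/- cells, and the labels were followed. The sources used here do not give the deleted part of Lpar6, the age of the embryos or the passage of the cells, nor whether different embryos or cultures stand behind the 3 samples of a genotype. The p-values therefore rest on a spread between arrays that could be purely technical.

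Integrins are receptors made of an alpha and a beta chain that bind matrix proteins or counter-receptors outside the cell and couple to actin inside it. The alpha chain largely sets the ligand, and the beta 1 chain pairs with most alpha chains. Classical cadherins hold like cells together through calcium-dependent contacts and reach actin through catenins. Protocadherins form the largest cadherin branch and are best known from neurons. Their clustered genes lie in alpha, beta and gamma arrays in which each variable exon has its own promoter, and within the alpha and the gamma array the variable exons are spliced to shared constant exons. In the mouse, fibroblasts are known for the collagen and fibronectin integrins and for Cdh2 and Cdh11, whereas Cdh1 marks epithelia and Cdh5 endothelium.

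The targeted gene separated the genotypes as labelled. The Lpar6 probe had intensities of 76.7, 77.9 and 75.99 on the Lpar6-/- arrays, where it was not well above background, against 1373, 1223 and 1278 on the Lpar6+/+ arrays. Fibroblast markers were present in both genotypes, with all 8 listed genes kept and a summed level (linear normalized values) of 40042 to 43332 on the Lpar6-/- arrays and 24586 to 26995 on the Lpar6+/+ arrays. By the test described below, 6 of these 8 were higher in Lpar6-/- cells and none was lower. Linear sums of this kind, here and below, weigh the brightest genes most. Array correlations over the kept probes were 0.993 to 0.994 within the Lpar6-/- arrays, 0.995 within the Lpar6+/+ arrays and 0.966 to 0.968 across genotypes. Kept probes are those detected (detection p under 0.05) on 3 or more of the 6 arrays. Changes below are Lpar6-/- minus Lpar6+/+ on a log2 scale after background correction and quantile normalization, ± SE with 3 arrays in each genotype, and a gene is represented by its brightest kept probe. These changes understate those of dim probes. Adjusted p-values are from limma, over all 19802 kept probes, with a threshold of 0.05. An exact permutation test of 1 gene alone cannot give a p below 0.1 with 3 arrays against 3.

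Of the 112 member genes, 56 had a kept probe, which is not the same as all members. Among these, 24 passed the test, 12 higher and 12 lower in Lpar6-/- cells, where 39.7% of all 11040 genes tested passed (20.6% higher and 19.1% lower). The counts differed by family. Of 16 integrin genes, 8 rose and 1 fell, with a median change of 0.43. Of 11 cadherin genes, 2 rose and 4 fell (median 0.06), and of 29 protocadherin genes, 2 rose and 7 fell (median -0.08). The median over all genes tested was 0.03. Of the 43 members detected on all 6 arrays 22 passed (12 higher and 10 lower), against 39.5% of all genes detected on all 6. The other 2 called members, Itgb8 and Pcdha11, passed the detection filter through the Lpar6+/+ arrays alone. These counts and medians are descriptions, and the difference between families was not tested. In all 24 called genes the 3 Lpar6-/- values lay on one side of the 3 Lpar6+/+ values, as they did in 32 of the 56 members and in 52.8% of all genes. Of the 56 members 10 changed 2-fold or more, against 6.79% of all genes: 4 were higher (2 integrins and 2 cadherins) and 6 were lower (1 cadherin and 5 protocadherins). These 2-fold counts depend on the processing: over the alternatives the smallest change of Cdh1 was 0.36 and that of Pcdh10 -0.45. When arrays were scaled to 1 median instead of quantile-normalized, the median change of all genes was -0.08, and 10 members rose and 17 fell; by family the split was then 7 higher and 1 lower for integrins, 2 and 5 for cadherins and 1 and 11 for protocadherins.

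**Figure D1:**
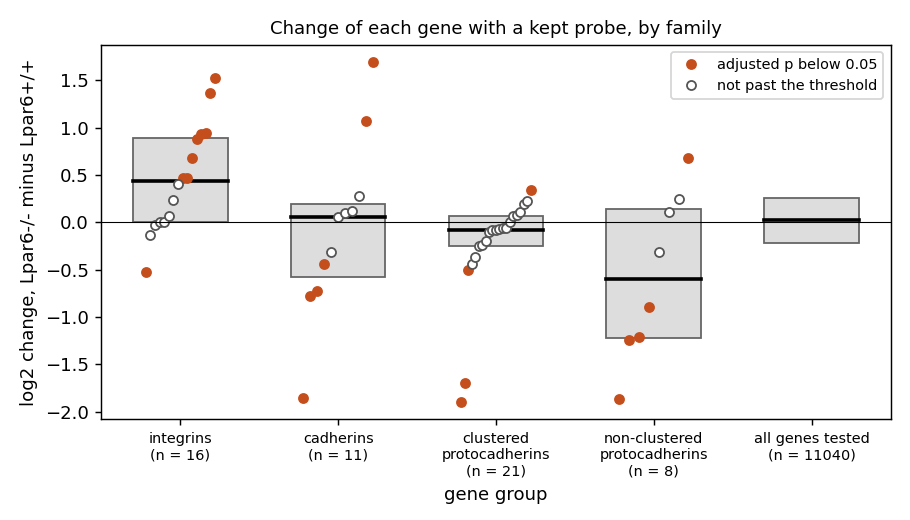
Log2 change, Lpar6-/- minus Lpar6+/+, of each member gene with a kept probe (points; filled where the limma adjusted p is below 0.05) by family, and of all 11040 genes tested. Boxes span the middle 50% of genes and the black line is the median, 0.43 for integrins, 0.06 for cadherins, -0.08 for clustered and -0.60 for non-clustered protocadherins and 0.03 for all genes.

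Promoter windows of called members that rose (Itga1, Itga11 and Itga5, matrix-binding integrins) and that fell (Pcdh7, Pcdh10 and Pcdh17, non-clustered protocadherins) are shown so that their base composition can be read beside the changes. Each window runs from 250 bases before to 50 after the start of the gene in RefSeq (GRCm38.p6), and the capitals mark the E-box CACCTG (or CAGGTG on the other strand), a binding motif of the Snail and Zeb repressors, and the GC box GGGCGG (or CCGCCC).
Itga1 (chr13:115101915-115102214, minus strand): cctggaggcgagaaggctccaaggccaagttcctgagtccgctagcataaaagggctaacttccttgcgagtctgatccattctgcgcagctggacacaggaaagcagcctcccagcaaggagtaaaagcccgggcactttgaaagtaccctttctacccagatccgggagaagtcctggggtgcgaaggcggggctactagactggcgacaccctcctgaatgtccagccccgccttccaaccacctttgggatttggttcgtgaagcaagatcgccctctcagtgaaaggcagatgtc
Itga11 (chr9:62677605-62677904, plus strand): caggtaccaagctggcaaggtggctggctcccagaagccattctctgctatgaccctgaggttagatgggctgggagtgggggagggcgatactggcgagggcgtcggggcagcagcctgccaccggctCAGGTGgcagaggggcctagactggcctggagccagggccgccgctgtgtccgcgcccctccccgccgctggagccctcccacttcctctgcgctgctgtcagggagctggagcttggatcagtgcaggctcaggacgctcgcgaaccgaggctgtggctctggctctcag
Itga5 (chr15:103366742-103367041, minus strand): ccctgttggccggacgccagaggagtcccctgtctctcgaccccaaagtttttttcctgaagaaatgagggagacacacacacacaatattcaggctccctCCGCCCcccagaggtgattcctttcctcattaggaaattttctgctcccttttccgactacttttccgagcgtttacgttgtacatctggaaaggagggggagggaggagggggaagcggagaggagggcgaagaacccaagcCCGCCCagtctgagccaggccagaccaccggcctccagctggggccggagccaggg
Pcdh7 (chr5:57717831-57718130, plus strand): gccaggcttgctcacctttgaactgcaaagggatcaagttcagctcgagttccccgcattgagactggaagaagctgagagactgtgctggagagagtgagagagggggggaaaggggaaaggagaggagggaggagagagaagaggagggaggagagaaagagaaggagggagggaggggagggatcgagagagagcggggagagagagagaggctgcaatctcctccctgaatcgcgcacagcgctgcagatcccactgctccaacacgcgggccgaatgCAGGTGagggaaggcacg
Pcdh10 (chr3:45378148-45378447, plus strand): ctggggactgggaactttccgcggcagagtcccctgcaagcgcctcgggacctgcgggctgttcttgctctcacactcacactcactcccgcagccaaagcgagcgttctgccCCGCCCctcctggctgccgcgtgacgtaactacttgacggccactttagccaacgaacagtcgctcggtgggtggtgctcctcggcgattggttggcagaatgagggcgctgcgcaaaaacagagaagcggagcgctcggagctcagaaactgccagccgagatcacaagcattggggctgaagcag
Pcdh17 (chr14:84443313-84443612, plus strand): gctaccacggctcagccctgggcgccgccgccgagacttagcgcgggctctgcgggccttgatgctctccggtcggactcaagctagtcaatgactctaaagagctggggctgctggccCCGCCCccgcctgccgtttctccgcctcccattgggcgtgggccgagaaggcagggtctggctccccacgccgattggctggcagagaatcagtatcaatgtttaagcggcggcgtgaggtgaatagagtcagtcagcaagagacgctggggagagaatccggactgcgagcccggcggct

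A RefSeq promoter was matched for 23 of the 56 kept members. Of these, 6 held the E-box and 12 the GC box, where the motifs occur in 20.2% and 35.7% of all 32851 windows in the table. Median G+C content was 61.3% in the members and 52.7% in all windows. Among the windows printed, Itga1, Itga11 and Itga5 hold 12, 16 and 13 CpG dinucleotides and Pcdh7, Pcdh10 and Pcdh17 hold 11, 24 and 26, so the counts do not separate the genes that rose from those that fell. These letters describe the windows and say nothing of which factor binds there.

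The collagen-binding integrins showed rises in both of their kept alpha chains. Itga11 (ILMN_2701778, chromosome 9), the alpha 11 chain through which fibroblasts hold fibrillar collagen, had log2 values of 11.22, 11.12 and 11.08 on the Lpar6-/- arrays, against 9.92, 9.75 and 9.65 on the Lpar6+/+ arrays. All 3 Lpar6-/- arrays were higher, by 1.37 ± 0.0996 (adjusted p = 7.76e-06), and its other 2 kept probes also rose, by 1.23 and 0.63. Itga1 (ILMN_2967445, chromosome 13), a receptor chain for collagen type IV, had log2 values of 7.55, 7.44 and 7.29 on the Lpar6-/- arrays, against 6.52, 6.57 and 6.37 on the Lpar6+/+ arrays. The arrays separated by genotype here as well (0.94 ± 0.104, adjusted p = 0.000115). Their relative Itga2 was detected on 1 array at most and was not tested. The chain that all of these pair with, Itgb1, had log2 values of 8.93, 9.27 and 8.55 on the Lpar6-/- arrays, against 8.80, 8.28 and 8.48 on the Lpar6+/+ arrays. Arrays of the genotypes overlapped, with array E the highest and array B the lowest, and the change of 0.40 ± 0.187 did not pass (adjusted p = 0.124, 95% interval -0.02 to 0.82). This call changed with the processing: Itgb1 passed in 5 of 18 alternatives, with adjusted p of 0.00972 to 0.357, and its other kept probe gave 0.28 and did not pass.

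Of the laminin-binding alpha chains, Itga7 and Itga6 rose and Itga3 did not pass. Itga7 (ILMN_1257880, chromosome 10), the main laminin receptor chain of skeletal muscle, had the largest rise of any integrin tested here on this scale. Its log2 values were 6.72, 6.71 and 6.65 on the Lpar6-/- arrays, against 5.25, 5.29 and 4.96 on the Lpar6+/+ arrays (1.53 ± 0.107, adjusted p = 5.83e-06). Over the alternatives its rise ranged from 0.52 to 1.58 and that of Itga11 from 1.08 to 1.44, so this ranking depends on the processing. The second Itga7 probe was not detected on any array. On the same arrays the skeletal muscle markers were higher, all 8 kept genes of the 8 on the array, with a summed level of 10669 to 11061 in Lpar6-/- cells and 5729 to 5792 in Lpar6+/+ cells, and none of them was undetected throughout; their part in the change of Itga7 was not tested. Of these muscle markers, Ckm was kept through the Lpar6-/- arrays alone, which fixed its direction. In bulk RNA, more cells of a type and more RNA per cell cannot be told apart. Itga6 (ILMN_1231492, chromosome 2), a laminin receptor chain of epithelia and stem cells, had log2 values of 6.12, 6.41 and 6.45 on the Lpar6-/- arrays, against 5.23, 5.57 and 5.55 on the Lpar6+/+ arrays. It was higher on every Lpar6-/- array (0.88 ± 0.128, adjusted p = 0.000650). Its signal was low, and its rise ranged from 0.29 to 0.99 over the alternatives, so the size is uncertain. Itga3, which prefers laminins of epithelial basement membranes, changed by -0.03 ± 0.116 (adjusted p = 0.850).

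Among the alpha chains that read the RGD sequence of matrix proteins, only Itga5 passed. Itga5 (ILMN_2849449, chromosome 15), the fibronectin receptor chain, had log2 values of 10.03, 10.01 and 9.76 on the Lpar6-/- arrays, against 9.31, 9.18 and 9.28 on the Lpar6+/+ arrays. The rise of 0.68 ± 0.103 (adjusted p = 0.000820) was matched by its other kept probe, at 0.66. The chain Itgav, which binds vitronectin and latent TGF-beta with several beta chains, had a change of 0.01 ± 0.114 (95% interval -0.25 to 0.26), with 0.09 and -0.01 by its 2 further kept probes. Itga8, a nephronectin receptor chain, changed by -0.13 ± 0.116 and did not pass. Itga9, which binds tenascin and other ligands, was higher on each Lpar6-/- array, yet its change of 0.24 ± 0.0980 missed the threshold (adjusted p = 0.0854) and passed in 6 of 18 alternatives.

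Beta chains that pair with Itgav or Itga6 moved in both directions. Itgb6 (ILMN_2805372, chromosome 2), an epithelial partner of Itgav that activates TGF-beta, had log2 values of 6.79, 6.56 and 6.59 on the Lpar6-/- arrays, against 5.47, 5.89 and 5.79 on the Lpar6+/+ arrays. It rose by 0.93 ± 0.127 (adjusted p = 0.000426), and its second kept probe rose by 0.74. The size is uncertain, as the rise of Itgb6 ranged from 0.35 to 1.02 over the alternatives. Itgb5 (ILMN_2663613, chromosome 16), a vitronectin receptor chain with Itgav, had log2 values of 10.56, 10.35 and 10.54 on the Lpar6-/- arrays, against 10.09, 10.13 and 9.84 on the Lpar6+/+ arrays. The groups did not overlap (0.46 ± 0.111, adjusted p = 0.00918). Itgb4 (ILMN_3144575, chromosome 11), the partner of Itga6 in hemidesmosomes, had log2 values of 7.63, 7.81 and 7.83 on the Lpar6-/- arrays, against 7.37, 7.34 and 7.17 on the Lpar6+/+ arrays. Its rise of 0.47 ± 0.101 (adjusted p = 0.00568) was not shared by its second kept probe (0.17, adjusted p = 0.237) and was lost under median scaling (adjusted p = 0.0804).

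Itgb8 was the integrin that fell. This further partner of Itgav, which presents latent TGF-beta and is known from neural and dendritic cells, had intensities of 95.98, 92.5 and 92.5 on the Lpar6-/- arrays, where it was not well above background, against 122, 117 and 107 on the Lpar6+/+ arrays. On the background-corrected, normalized scale it was at least 1.31-fold lower (adjusted p = 0.00212), a figure that depends on the scale, since the fitted log2 change of -0.52 was -0.26 with an offset of 50 and -0.19 in the authors' log2 values. The detection filter kept it through the Lpar6+/+ arrays alone, which fixed its direction. On the same arrays neuronal markers were lower, with a summed level of 1001 to 1044 in Lpar6-/- cells and 6057 to 6203 in Lpar6+/+ cells, and the part of these cells in the fall of Itgb8 was not tested.

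Integrins of blood cells were at or near background. Of the leukocyte alpha chains, Itgam, Itgax and Itgae were not detected on any array, and Itgal was detected on 1 Lpar6-/- and 2 Lpar6+/+ arrays with a change of 0.01 ± 0.142. Itgb2, the beta chain of Itgal, Itgam and Itgax, was detected on 1 array at most, and Itgb3, Itgb7 and Itga4 on none. Of the macrophage and leukocyte markers, 8 of 9 on the array were kept, 1 rose and 2 fell, and Ptprc, the pan-leukocyte marker, was not detected on any array. The platelet chain Itga2b had log2 values of 4.95, 6.13 and 5.12 on the Lpar6-/- arrays, against 5.43, 5.45 and 5.13 on the Lpar6+/+ arrays. Array E stood apart from the other 5, and the change of 0.06 ± 0.263 did not pass (95% interval -0.53 to 0.66). Of the megakaryocyte and platelet markers, 3 of 5 were kept and Pf4 alone rose, by 1.51 ± 0.140, while Gp9 and Gp6 were not detected on any array.

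**Figure D2:**
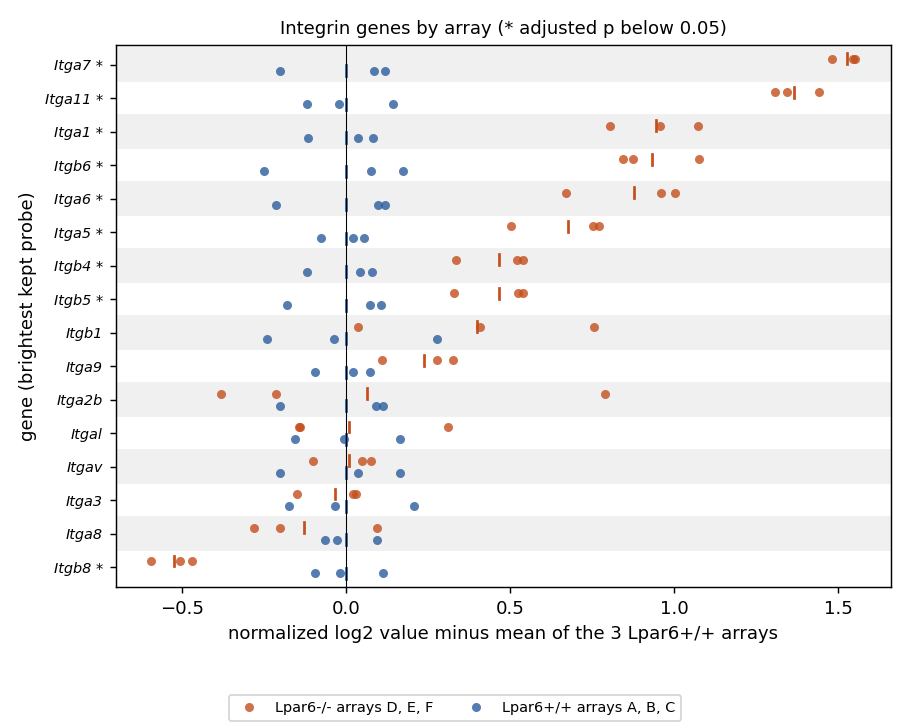
Normalized log2 value of each integrin gene on each array minus the mean of its 3 Lpar6+/+ arrays, with Lpar6-/- arrays in orange above Lpar6+/+ arrays in blue, vertical ticks at the means and asterisks for an adjusted p below 0.05. Genes run from Itga7 (change 1.53) at the top to Itgb8 (-0.52) at the bottom, and Itga2b shows array E apart from the others.

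Of the cadherins known from epithelia, Cdh16 and Cdh1 rose. Cdh16 (ILMN_2670038, chromosome 8), the kidney-specific cadherin, had log2 values of 7.25, 7.18 and 7.16 on the Lpar6-/- arrays, against 5.61, 5.52 and 5.37 on the Lpar6+/+ arrays. On this scale it was the largest rise of any member (1.70 ± 0.0959, adjusted p = 1.53e-06). Over the alternatives the rise of Cdh16 ranged from 0.69 to 1.74 and that of Itga11 from 1.08 to 1.44, so this ranking depends on the processing. Cdh1 (ILMN_2628629, chromosome 8), E-cadherin, the adherens junction protein of epithelia, had log2 values of 6.54, 6.28 and 6.62 on the Lpar6-/- arrays, against 5.16, 5.36 and 5.69 on the Lpar6+/+ arrays. The lowest Lpar6-/- array was above the highest Lpar6+/+ array (1.07 ± 0.146, adjusted p = 0.000439). The signal was low, with intensities of 140 to 154 on the Lpar6-/- arrays and 111 to 121 on the Lpar6+/+ arrays. Its change ranged from 0.36 to 1.21 over the alternatives, so the size is uncertain. The other Cdh1 probe was not detected on any array. Epithelial markers were also higher on the Lpar6-/- arrays, all 7 kept genes of 10, with a summed level of 2320 to 2453 against 861 to 883 on the Lpar6+/+ arrays. Of these 7, Esrp1 was kept through the Lpar6-/- arrays alone, which fixed its direction. Epcam, Grhl2 and Krt5, which define many epithelia, were not detected on any array, and the part of epithelial cells in the rises of Cdh1, Cdh16, Itgb6 and Itgb4 was not tested.

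Cdh3, P-cadherin, which lies beside Cdh1 in the mouse genome, went the other way. Cdh3 (ILMN_3156246) had log2 values of 8.48, 8.38 and 8.48 on the Lpar6-/- arrays, against 9.05, 8.80 and 8.80 on the Lpar6+/+ arrays. The fall of -0.44 ± 0.10 (adjusted p = 0.00773) was seen with a second probe (-0.50), while another gave -0.16 and did not pass. The other classical type I cadherins were split. Cdh4 (ILMN_1260036, chromosome 2), R-cadherin of retina, brain and muscle, had log2 values of 6.78, 6.98 and 7.06 on the Lpar6-/- arrays, against 8.86, 8.74 and 8.80 on the Lpar6+/+ arrays. The Lpar6-/- arrays were all far below the Lpar6+/+ arrays (-1.86 ± 0.10, adjusted p = 1.20e-06), the largest fall of any cadherin tested here. Its dimmer probe was kept through the Lpar6+/+ arrays alone and is no further support. Cdh2, N-cadherin of neurons and fibroblasts, was detected on only 2 arrays of each genotype and changed by 0.12 ± 0.213 (95% interval -0.36 to 0.60). Cdh15, M-cadherin of muscle precursors, was slightly higher on each Lpar6-/- array and did not pass (0.10 ± 0.0839, adjusted p = 0.370).

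Of the type II cadherins, 3 of 13 had a kept probe. Cdh8 (ILMN_1254818, chromosome 8), a brain cadherin, had log2 values of 5.42, 5.39 and 5.19 on the Lpar6-/- arrays, against 6.10, 6.03 and 6.03 on the Lpar6+/+ arrays. The groups did not overlap (-0.72 ± 0.0953, adjusted p = 0.000358). Signal was low, and the change ranged from -0.89 to -0.22 over the alternatives, so the size is uncertain. A second kept probe fell by 0.51, but it was detected on only 1 Lpar6-/- array and adds little support. Its remaining probe was kept through the Lpar6+/+ arrays alone and is no further support. Cdh11, the cadherin of mesenchyme and fibroblasts, was higher on each Lpar6-/- array after normalization and missed the threshold (0.27 ± 0.0981, adjusted p = 0.0528). Its signal was near background and its intensities overlapped, at 105 to 107 on the Lpar6-/- arrays and 100 to 113 on the Lpar6+/+ arrays. Its other kept probe gave 0.22 and did not pass by limma (adjusted p = 0.467). Cdh6, of kidney and neural crest, changed by 0.06 ± 0.136 (adjusted p = 0.774). Cdh5, the endothelial cadherin, was detected on 1 array at most. Of 8 endothelial markers on the array, 6 were kept, 2 rose and 1 fell. The other 2, Pecam1 and Tie1, were not detected on any array.

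Cdh13 (ILMN_2592321, chromosome 8), T-cadherin, which lacks the cytoplasmic tail and also binds adiponectin, had log2 values of 7.05, 6.94 and 6.75 on the Lpar6-/- arrays, against 7.48, 7.66 and 7.93 on the Lpar6+/+ arrays. All 3 of its kept probes fell, by 0.78, 0.71 and 1.12 on the log2 scale, with an adjusted p of 0.00158 for the brightest. The probe with the fall of 1.12 was detected on only 1 Lpar6-/- array. It met the filter by its 3 Lpar6+/+ arrays, so it adds little support. Its ligand gene Adipoq was at least 54.0-fold higher on the normalized scale in Lpar6-/- cells, with no Lpar6+/+ array on which it was detected. Adipoq is 1 of 10 adipocyte markers, of which all 8 kept genes rose and Fabp4 and Retn were not detected on any array. Adipoq, Cidea, Cidec and Plin1 were kept through the Lpar6-/- arrays alone, which fixed their direction. The summed level of the 8 kept genes was 10503 to 12218 on the Lpar6-/- arrays and 3471 to 4061 on the Lpar6+/+ arrays. Lpl was the brightest of the 8, with mean log2 values of 13.08 on the Lpar6-/- and 11.67 on the Lpar6+/+ arrays. The part of adipocytes in the change of Cdh13 was not tested. Cdh26, known from human epithelia in allergic inflammation, changed by -0.32 ± 0.115 (adjusted p = 0.0557) and passed in 5 of 17 alternatives.

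**Figure D3:**
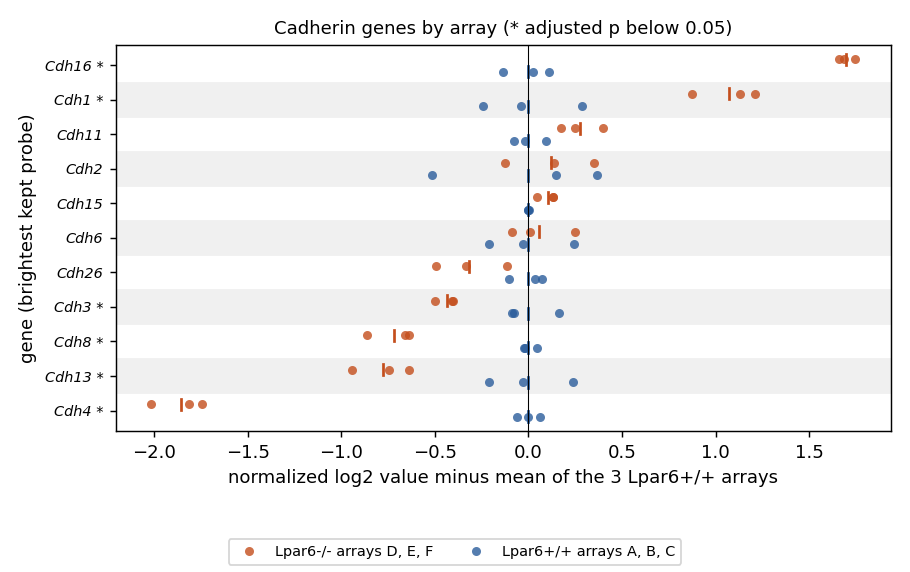
Normalized log2 value of each cadherin gene on each array minus the mean of its 3 Lpar6+/+ arrays, with Lpar6-/- arrays in orange above Lpar6+/+ arrays in blue, ticks at the means and asterisks for an adjusted p below 0.05. Cdh16 (1.70) and Cdh1 (1.07) lie on the right, and Cdh4 (-1.86), Cdh13 (-0.78), Cdh8 (-0.72) and Cdh3 (-0.44) on the left.

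Non-clustered protocadherins fell in 4 of 8 genes with a kept probe and rose in 1, where 19.1% of all genes tested fell and 20.6% rose. Of the delta-1 genes, Pcdh9 (ILMN_1231837, chromosome 14), a brain protocadherin, had log2 values of 7.33, 7.12 and 7.30 on the Lpar6-/- arrays, against 8.47, 8.54 and 8.48 on the Lpar6+/+ arrays. The groups were far apart (-1.24 ± 0.0932, adjusted p = 9.17e-06). Pcdh7 (ILMN_2881857, chromosome 5), also called NF-protocadherin, had log2 values of 8.63, 8.38 and 8.60 on the Lpar6-/- arrays, against 9.33, 9.41 and 9.54 on the Lpar6+/+ arrays. It was lower on each Lpar6-/- array (-0.89 ± 0.104, adjusted p = 0.000164). Second kept probes of both genes were also lower, by smaller amounts, -0.81 for Pcdh9 and -0.31 for Pcdh7. That of Pcdh9 was detected on only 1 Lpar6-/- array and adds little support. Pcdh1, known from airway epithelium, changed by 0.25 ± 0.127 and did not pass.

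The delta-2 genes, several of which reach the actin-regulating WAVE complex through their tails, fell in 2 of the 4 kept genes. Pcdh17 (ILMN_2804444, chromosome 14), a synaptic protocadherin of the basal ganglia, had log2 values of 6.69, 6.76 and 6.27 on the Lpar6-/- arrays, against 8.56, 8.30 and 8.45 on the Lpar6+/+ arrays. Its fall (-1.86 ± 0.139, adjusted p = 9.02e-06) was the largest outside the clusters, and its dimmer second probe, kept through the Lpar6+/+ arrays alone, is no further support. Pcdh10 (ILMN_1228833, chromosome 3), also called OL-protocadherin, had log2 values of 5.26, 5.55 and 5.88 on the Lpar6-/- arrays, against 6.65, 6.90 and 6.78 on the Lpar6+/+ arrays. The Lpar6-/- arrays were spread but stayed below every Lpar6+/+ array (-1.21 ± 0.151, adjusted p = 0.000249), and all 3 kept probes fell. Pcdh19 on the X chromosome was lower on every Lpar6-/- array and missed the threshold (-0.31 ± 0.142, adjusted p = 0.116), passing in 5 of 18 alternatives. Pcdh18 changed by 0.11 ± 0.0961, and Pcdh8 was not detected on any array. Outside the delta groups, Pcdh20 (ILMN_1237302, chromosome 14) rose, with log2 values of 6.33, 6.36 and 6.28 on the Lpar6-/- arrays, against 5.70, 5.40 and 5.82 on the Lpar6+/+ arrays (0.68 ± 0.117, adjusted p = 0.00167). Signal was low here too, and the rise of Pcdh20 ranged from 0.23 to 0.78 over the alternatives.

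Among the clustered protocadherins on chromosome 18, Pcdha6 and Pcdha7 fell and the beta and gamma genes mostly did not pass. Pcdha7 (ILMN_1250379) had log2 values of 7.32, 7.22 and 7.12 on the Lpar6-/- arrays, against 9.06, 9.14 and 9.16 on the Lpar6+/+ arrays. This was the largest fall of any member (-1.90 ± 0.0927, adjusted p = 6.55e-07), and its second kept probe fell by 1.49. Pcdha6 (ILMN_3076948) had log2 values of 6.10, 5.77 and 5.64 on the Lpar6-/- arrays, against 7.38, 7.46 and 7.74 on the Lpar6+/+ arrays, again with no overlap (-1.69 ± 0.140, adjusted p = 1.76e-05). Pcdha11 was not well above background on any Lpar6-/- array, and the filter kept it through the Lpar6+/+ arrays alone, which fixed its direction. It was at least 1.23-fold lower on the same scale (adjusted p = 0.0248), a call lost in 4 of 14 alternatives. The other 9 alpha genes on the array had no kept probe. Alpha transcripts share their constant exons, and the positions of these probes within the transcripts were not used here, so which alpha transcripts the Pcdha6 and Pcdha7 probes measure is uncertain.

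By limma none of the 8 beta genes with a kept probe passed (1, Pcdhb19, at an unadjusted p below 0.05), with changes from -0.44 for Pcdhb19 to 0.20 for Pcdhb14. Of the 10 gamma genes, 1 passed: Pcdhgb4 rose by 0.34 ± 0.109 (adjusted p = 0.0356), with log2 values of 7.60, 7.66 and 7.72 on the Lpar6-/- arrays, against 7.39, 7.45 and 7.12 on the Lpar6+/+ arrays. That call was lost in 8 of 18 alternatives, among them the fits without Lpar6-/- array E (adjusted p = 0.0753), without Lpar6-/- array F (0.0938), without Lpar6+/+ array A (0.0543) and without Lpar6+/+ array C (0.117). The remaining gamma genes changed by -0.36 (Pcdhgc4) to 0.23 (Pcdhgc5). Pcdhga7 was not well above background on any Lpar6-/- array and was detected on all 3 Lpar6+/+ arrays, and its change did not pass (adjusted p = 0.117). Near-identical sequence between neighbouring cluster genes leaves it uncertain which of them a probe reads.

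Neuronal markers moved with the falls of the protocadherins, of Cdh4 and of Cdh8. All 8 kept neuronal markers of 10 fell, with a median change of -2.95, a summed level of 1001 to 1044 on the Lpar6-/- arrays and 6057 to 6203 on the Lpar6+/+ arrays, and Snap25 and Tubb3 undetected throughout. Cartilage markers were lower on the same arrays, 7 of 8 kept genes, with a summed level of 3759 to 3805 in Lpar6-/- cells and 15434 to 15649 in Lpar6+/+ cells. Col2a1 was the brightest of these 8, with mean log2 values of 10.73 on the Lpar6-/- and 13.47 on the Lpar6+/+ arrays. The part of either cell type in the falls was not tested.

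**Figure D4:**
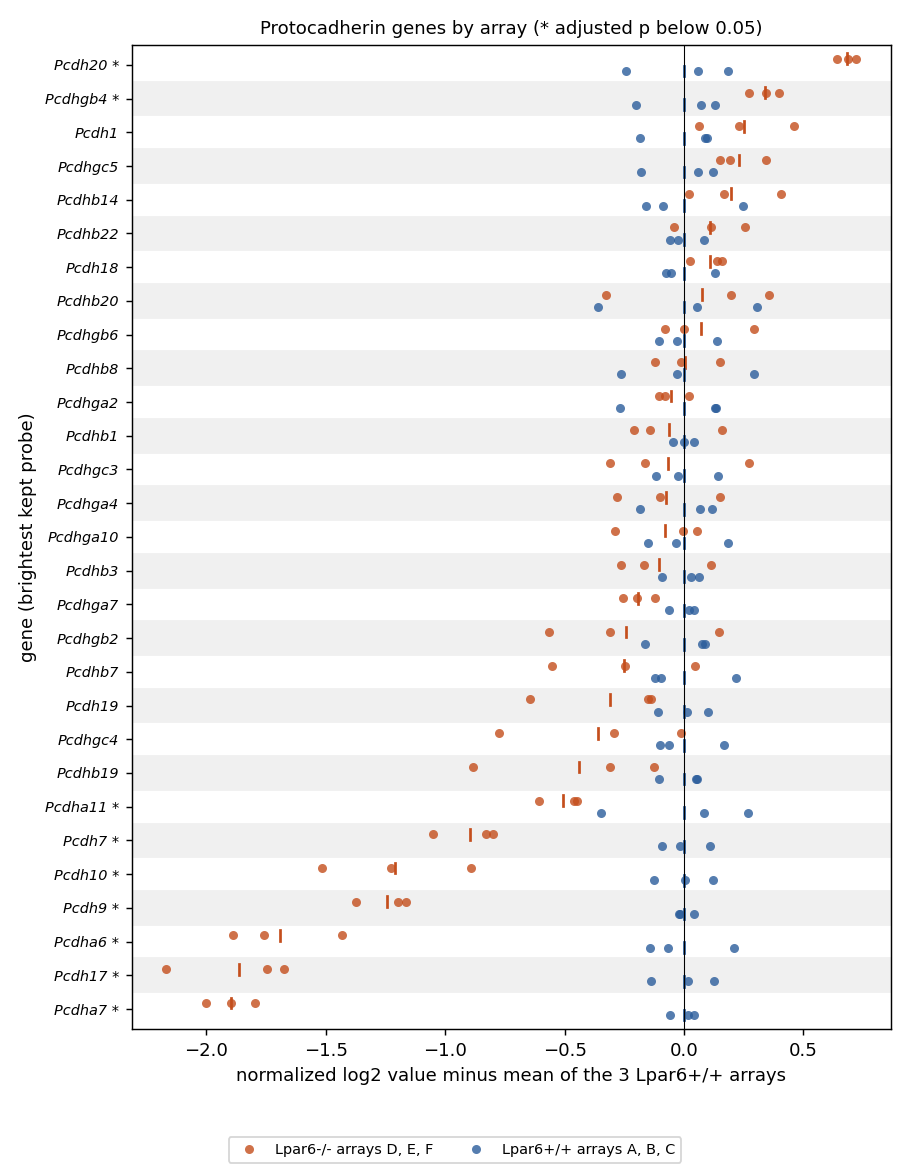
Normalized log2 value of each protocadherin gene on each array minus the mean of its 3 Lpar6+/+ arrays, with Lpar6-/- arrays in orange above Lpar6+/+ arrays in blue, ticks at the means and asterisks for an adjusted p below 0.05. The 6 genes at the bottom, Pcdh7 to Pcdha7, lie between -0.89 and -1.90, and most clustered genes scatter around 0.

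Genes that work with these receptors were followed in lists, and over all genes tested 39.7% passed (20.6% higher and 19.1% lower). Of 21 kept focal adhesion adaptors, 3 rose and 3 fell, with a median change of 0.03. The rises were those of the kindlins Fermt1 (1.06 ± 0.193) and Fermt3 (0.51 ± 0.0884), which activate integrins, and of the talin gene Tln2 (0.79 ± 0.0893), and the largest fall was that of the scaffold gene Bcar1 (-0.52 ± 0.0906). Fermt1 was detected on only 1 Lpar6+/+ array, so the size of its rise is uncertain. The widely used Tln1 (0.19 ± 0.116), Fermt2 (0.05 ± 0.0949), Ilk (-0.14 ± 0.113) and Pxn (0.09 ± 0.0983) did not pass. Of 14 kept integrin ligands outside the collagens and laminins, 5 rose and 4 fell, led by the thrombospondin gene Thbs2 (1.07 ± 0.0934), Jam3 (0.83 ± 0.131), Icam1 (-0.71 ± 0.0966) and the bone sialoprotein gene Ibsp (0.65 ± 0.0936); Jam3 was detected on only 2 Lpar6+/+ arrays. Fn1, the fibronectin that Itga5 binds, changed by -0.03 ± 0.117 (adjusted p = 0.857).

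On the cadherin side, 5 of 10 kept catenins and armadillo partners fell and 1 rose, with a median of -0.25. Of all genes tested, 19.1% fell and 20.6% rose. The largest falls were in Ctnnd2 (-2.08 ± 0.139) and Ctnna2 (-1.56 ± 0.126), the delta and alpha catenins of neurons, then Vezt (-0.93 ± 0.0845) and Afdn (-0.72 ± 0.0909), which link junctions to myosin and actin. Because Ctnnd2 was detected on only 1 Lpar6-/- array, its fall has no firm size. The widely expressed Ctnnb1 (-0.21 ± 0.103), Ctnna1 (-0.16 ± 0.0910) and Ctnnd1 (-0.21 ± 0.107) did not pass. In the rest of the cadherin superfamily 6 of 10 kept genes fell and none rose by limma (1, Cdhr2, at an unadjusted p below 0.05), with a median of -0.46: the adhesion-receptor cadherins Celsr3 (-2.35 ± 0.0896) and Celsr2 (-1.25 ± 0.117), the synaptic calsyntenin Clstn3 (-0.83 ± 0.141) and the giant cadherin Fat1 (-0.75 ± 0.0888) led. Desmosomal cadherins were mostly undetected, and Dsg2 changed by 0.20 ± 0.154 without passing. Of the 8 transcription factors known to repress Cdh1, Zeb2 (-0.64 ± 0.126) and Tcf4 (-0.26 ± 0.0904) fell, Twist2 (0.51 ± 0.0926) and Twist1 (0.38 ± 0.108) rose, and Snai1, Snai2, Zeb1 and Tcf3 did not pass. The fall of Zeb2 rests on the brighter of its 2 kept probes, and their mean did not pass by limma (adjusted p = 0.412). Tcf4 passed in only 8 of 18 alternatives and Twist1 in 14 of 18.

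Of the 112 member genes, 56 are outside these comparisons because no probe was kept. The 8 integrins, 12 cadherins and 36 protocadherins concerned had 90 probes, with highest intensities per gene of 80.9 to 114, and 41 of the 56 genes were not detected on any array. They include the type II cadherins Cdh7, Cdh9, Cdh10, Cdh18, Cdh19, Cdh20 and Cdh22 and the intestinal Cdh17, each undetected throughout. At this signal over background a difference in these genes was not detectable. Of the 56 kept genes, 19 had more than 1 kept probe. In 11 of these all kept probes passed (for Cdh4, Cdh8 and Pcdh17 this includes a probe kept through the Lpar6+/+ arrays alone), in 6 none passed and in 2 (Cdh3 and Itgb4) only some did, and no gene had called probes of opposite direction. For Cdh13, Cdh8 and Pcdh9 the passing probes include 1 detected on only 1 Lpar6-/- array.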

How the data were processed

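Per the labels' protocols, Trizol-extracted RNA of 6 samples was column-purified and labelled with biotin for Illumina arrays. The authors deposited non-normalized probe intensity with detection p-values, per the file headers. They also deposited log2 values; limma, with no version, is the tool named in the submitters' processing notes. These were quantile-normalized log2 intensities without background correction, to within 0.00385 in each genotype's mean. Intensity columns show genotype and a letter only, so they were assigned to genotype.

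Intensities were corrected with normexp from the detection p-values, quantile-normalized and log2-transformed with an offset of 16 (neqc, limma 3.58.1, R 4.3.3). Probes with a detection p below 0.05 on at least 3 of the 6 arrays were kept (19802 of 45281). Probe symbols come from GEO's platform annotation and updated by Entrez ID in a RefSeq table of GRCm38.p6 (34885 probes had 1 symbol, 18 several and 10378 none). A gene is its kept probe with the highest mean. Probes were tested with lmFit and eBayes, Lpar6-/- minus Lpar6+/+, and p-values were adjusted (Benjamini-Hochberg) over the kept probes. A probe detected on no array of 1 genotype has a bound: the brighter mean against, per array, the lowest detected value or the probe's own, whichever is higher. Its size depends on the scale. The fit was tested on simulated data.

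The members, lists and alternatives were chosen with earlier results of these data known. Genes named were Lpar6, called members, members at background in 1 genotype only, members whose probes disagree, and up to 4 called genes of each pathway list. Markers and uncalled members named for context are outside this rule and were named after their values were seen. Alternatives covered background, normalization, offset, filter, probe choice, variance model, weights, threshold, the authors' values, the replicate numbers as a block and each array left out.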

Additional observations from a re-analysis of the deposited data

How the results depend on the processing

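Over 18 alternatives the number of called members stayed within 17 to 28 (24 in the analysis reported), and 21 of the 24 called members passed in each alternative in which they were tested. No called member changed sign in any of them. Called integrins numbered 6 to 11, cadherins 4 to 7 and protocadherins 7 to 12. With 1 array left out the ranges were 21 to 26 for all members, 8 to 10 for integrins, 6 to 7 for cadherins and 7 to 10 for protocadherins. The fewest calls (17) came from asking for a detection p below 0.01 on all 6 arrays, which tests fewer genes. The median change of integrins was 0.07 to 0.52, that of cadherins -0.19 to 0.10 and that of protocadherins -0.22 to -0.03; the lowest integrin median came without the detection filter, which adds probes at background.

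The calls lost were those of Itgb4 (median scaling), Pcdhgb4 and Pcdha11. Pcdhgb4 had an adjusted p of 0.319 under median scaling, 0.0575 under cyclic loess and 0.0596 without the filter. Pcdha11 had 0.0792 with plain log2 values, 0.0578 without the filter and 0.0684 without Lpar6-/- array E. Among uncalled members 9 gained a call somewhere. Leaving out Lpar6-/- array D did so for Cdh26 (0.0168) and Itga9 (0.0491), array E for Cdh11 (0.048), Pcdhb19 (0.0232), Pcdhgb2 (0.0284) and Pcdhgc4 (0.0289), and array F for Itgb1 (0.0298). The causes were not tested.

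In the authors' log2 table both genotypes have replicates numbered 1 to 3. Deviations of same-numbered samples correlated at -0.0482, 0.0204 and -0.0536. With 3 arrays in each genotype these values cannot show whether same-numbered samples shared a culture or a preparation. With the replicate block on the authors' values 27 members were called, as without the block on those values (11 integrins, 6 cadherins and 10 protocadherins in both).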

Other observations

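Lpar6 lies on chromosome 14, as do 3 members with a kept probe: Pcdh9 changed by -1.24 ± 0.0932 and Pcdh17 by -1.86 ± 0.139, while Pcdh20 changed by 0.68 ± 0.117. The cells are of a mixed 129SV and C57BL/6 background, and no strain was labelled for single samples.

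The median SD of a member's log2 values within a genotype was 0.148 for the Lpar6-/- arrays and 0.143 for the Lpar6+/+ arrays. The widest spread was that of Itga2b among the Lpar6-/- arrays (SD 0.634) and of Cdh2 among the Lpar6+/+ arrays (SD 0.459).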
